A study of Triticum aestivum with 10 samples.

Results

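The transcripts described here are those read at lower levels in a wheat line with cold-induced hybrid necrosis than in a wild-type line, in leaf and in shoot alike, at 4 °C. They were chosen by their measured values. A probe qualified if its mean log2 level was at least 1 lower, a 2-fold difference, in necrotic than in wild-type plants in both tissues. It also had to be well above background, by the scanner software's own call, on both arrays of each wild-type group. Of 37826 wheat probes on the array, 28456 met the background requirement, and 262 of those met both fold thresholds. With normexp background correction, which compresses dim signals, the rule found 90 probes, 87 of them among the 262.

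Synthetic hexaploid wheat is made by crossing tetraploid wheat with the wild goat grass Aegilops tauschii and doubling the chromosomes of the hybrid. Hybrid necrosis is the gradual death of tissue in otherwise viable hybrids. It arises when alleles from the parents, each harmless in its own background, act badly together, and it resembles a plant immune response set off without a pathogen. In the cold-induced form the symptoms appear when the plants are moved to low temperature.

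The study used 1-colour Agilent arrays on total RNA of synthetic hexaploid seedlings, with 10 arrays in 5 groups of 2. Necrotic leaf at 4 °C, necrotic shoot at 4 °C, wild-type leaf at 4 °C and wild-type shoot at 4 °C came from plants grown for 3 weeks at 23 °C and then kept at 4 °C, for 12 weeks before leaf was taken and for 6 weeks before the shoot with its apical meristem was taken. Necrotic leaf at 23 °C came from 3-week-old plants of the necrotic line that had no cold treatment. Uncooled leaf of the wild-type line was not analysed here. The deposited text describes each phenotype as 1 line, so that any other genetic difference between the lines enters each difference between them, and it speaks of independent experiments without saying whether the arrays of a group came from separate plants; the p-values below measure the spread between these arrays, which may be technical. RNA came from whole tissue, so fewer cells of a type and less RNA per cell cannot be told apart. Probe names did not match the wheat gene table used here, no tissue marker could be looked up, and the labelled tissues were therefore not checked.

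A level below is log2 of the processed signal relative to the 75th percentile of the array's probes, so that 0 is the 75th percentile and each step of 1 is a 2-fold change. It can be compared between arrays for 1 probe, but not between probes. Replicate arrays correlated at 0.994 to 0.997 over all probes, and the median gap between replicate arrays over the 262 probes was 0.061 to 0.12. Between 28487 and 32630 probes per array were well above background. Each slide held 1 tissue and temperature: the leaf arrays at 4 °C shared a slide, as did the shoot arrays and the arrays at 23 °C. The comparison of the lines was thus made within a slide, whereas those between temperatures and between tissues were made across slides and cannot be told apart from slide, plant age or weeks of cold.

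Over the 262 probes the median difference, necrotic minus wild type, was -1.502 in leaf, 2.83-fold lower, and the smallest difference was -1.0001. In shoot the median was -1.70, 3.25-fold lower, and the smallest difference was -1.0028. Where a necrotic group was not well above background on either array, its fold is a bound, taken against the higher of each array's lowest level above background and the probe's own level, averaged over the group. With such probes at their bounds the medians were -1.48 in leaf and -1.68 in shoot. An array's lowest level above background is not the detection limit of every probe. At 23 °C, wheat0130Contig5978 read -7.03 and -7.05 without being called, although the lowest levels called were -7.24 and -7.16. A fold given below as "at least" holds only under this definition and may be too large. The lowest difference among probes read above background on some necrotic array was -6.22 in leaf, over 224 probes, and -5.64 in shoot, over 236, and the largest bounds were 315-fold in leaf and 54.2-fold in shoot. The medians over the 28456 probes above background in wild type were -0.054 in leaf and -0.036 in shoot. These differences selected the probes and are given without a test. Of the probes above background in wild type, 993 (3.49%) met the fold threshold in leaf and 2458 (8.64%) met it in shoot. The 262 probes that met both were 26.4% of the leaf list and 10.7% of the shoot list.

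For 190 of them the leaf and shoot differences were within 2-fold of each other. Leaf differed more by at least 2-fold for 39 probes, whose medians were -3.44 in leaf and -1.61 in shoot. Shoot differed more by at least 2-fold for 33 probes, whose medians were -1.502 in leaf and -3.28 in shoot. Of these, 20 of the 39 and 23 of the 33 were read above background on some necrotic array of each tissue, and in the others a level below background enters the comparison. Across the 262 probes, which share the same 8 arrays and were bounded by the rule, Pearson's correlation of the leaf and shoot differences was 0.55, as a description only. It was taken on the measured means, levels below background included. With bounds in place of levels below background, 41 probes fell by at least 2 on the log2 scale in both tissues, and 17 by at least 3, which is 8-fold.

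**Figure D1:**
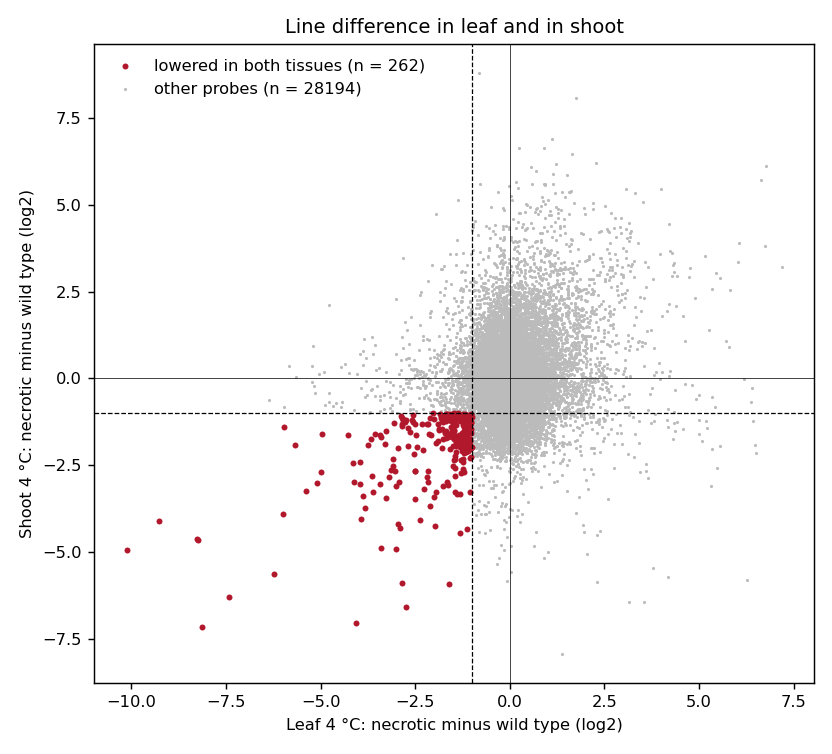
Necrotic minus wild-type difference in leaf (horizontal axis) and in shoot (vertical axis), in log2 units, for each probe well above background in wild type, with the 262 selected probes in colour and the fold thresholds as lines. Most selected probes lie near the corner of the thresholds, and 17 fall by at least 3 in both tissues with bounds in place of levels below background; the points themselves are drawn at the measured means.

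Every array of the necrotic line was below every wild-type array, in leaf and in shoot alike, for 259 of the 262 probes (98.9%). The same held for 20.8% of the probes above background in wild type, a contrast that the choice of the probes fixes. Every necrotic array was at least 2-fold below every wild-type array of the same tissue for 189 probes, while 73 had some pair of arrays less than 2-fold apart. The 3 probes with overlapping arrays overlapped in leaf, and all rested on a very low second array of necrotic leaf at 4 °C. One of them, wheat0130Contig3109, had levels of -6.24 and -9.57 in necrotic leaf, against -6.27 and -6.13 in wild-type leaf. In shoot the same probe read 3.02 and 2.98 in necrotic plants, against 4.47 and 4.62 in wild-type plants, with no overlap. MUG009B10R990122 had -3.07 and -9.17 in necrotic leaf, against -3.30 and -3.24 in wild-type leaf. These leaf differences come from 1 array, and the probes were singled out after their values were seen. Replicate arrays lay at least 1 apart for 12 of the 262 probes in necrotic leaf at 4 °C, 8 in necrotic leaf at 23 °C, 4 in necrotic shoot, 1 in wild-type leaf and 0 in wild-type shoot. In necrotic leaf at 4 °C they lay at least 2 apart for 7 probes, so a very low second array was not confined to overlapping probes. Without overlap, rwhyd22o24 read -5.40 and -10.03 in necrotic leaf, against -5.11 and -5.17 in wild-type leaf.

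**Figure D2:**
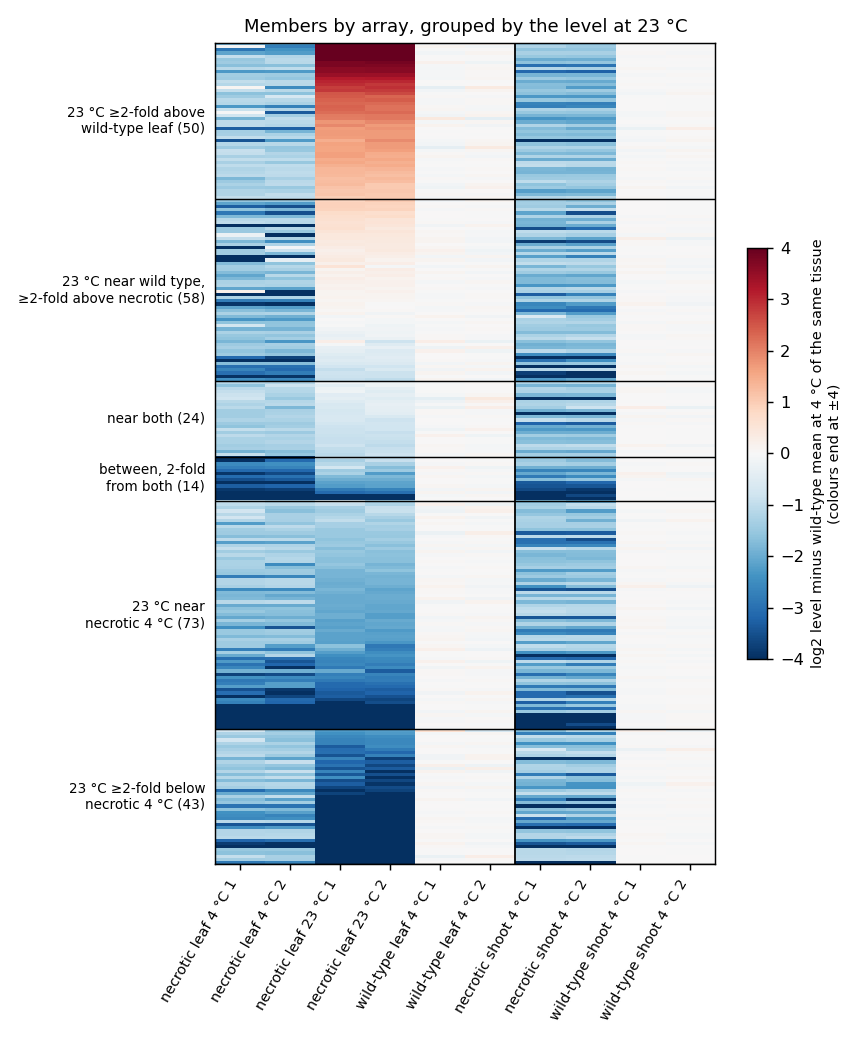
Level of each of the 262 probes (rows) on each of the 10 arrays (columns), with colours ending at -4 and 4. Each colour is the log2 distance from the probe's wild-type mean at 4 °C in the same tissue. Wild-type columns thus lie near their reference by construction, and leaf colours cannot be compared with shoot colours. The necrotic columns at 4 °C are the lower ones in each tissue, as the rule requires, while the necrotic leaf columns at 23 °C range from well below to well above wild-type leaf.

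Among probes above background on both necrotic arrays of leaf, the deepest falls in leaf were those of MUGEST2003_23lib_Contig5913_251 and rwhr25o12. MUGEST2003_23lib_Contig5913_251 had levels of -2.31 and -2.35 in necrotic leaf at 4 °C, 3.94 and 3.83 in necrotic leaf at 23 °C, and 3.18 and 3.48 in wild-type leaf at 4 °C. In shoot it had -4.54 and -4.64 in necrotic plants, against -2.63 and -2.69 in wild-type plants. Its transcript was thus 50.8-fold lower in necrotic leaf and 3.81-fold lower in necrotic shoot, and only the cold-treated leaf of the necrotic line was low among the 3 leaf groups. The probe rwhr25o12 read -4.83 and -4.99 in necrotic leaf at 4 °C, -1.67 and -1.65 in necrotic leaf at 23 °C, and 0.48 and 0.47 in wild-type leaf at 4 °C. Its shoot levels were -4.62 and -4.40 in necrotic plants and -1.25 on both arrays of wild-type plants. For rwhr25o12 the fall was 41.7-fold in leaf and 9.55-fold in shoot, and the uncooled necrotic leaf lay between the cold-treated leaves of the lines.

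The deepest falls in shoot, among probes above background on both necrotic shoot arrays, were in MUGEST2003_23lib_Contig8755_p_242 and MUGEST2003_23lib_Contig18680_397. MUGEST2003_23lib_Contig8755_p_242 had -7.20 and -7.42 in necrotic shoot, against -1.70 and -1.65 in wild-type shoot, 49.8-fold lower. In leaf it had -7.73 and -8.39 in necrotic plants, above background on 1 of 2 arrays, against -1.79 and -1.89 in wild-type plants, 74.5-fold lower. MUGEST2003_23lib_Contig18680_397 read -6.55 and -6.82 in necrotic shoot, against -2.10 and -2.01 in wild-type shoot, 24.9-fold lower. In leaf the necrotic line read -10.29 and -9.35 at 4 °C and -9.50 and -9.38 at 23 °C, none well above background, against -1.61 and -1.51 in wild-type leaf. As a bound, MUGEST2003_23lib_Contig18680_397 was at least 97.2-fold lower in necrotic leaf than in wild-type leaf.

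The largest falls shared by both tissues, among probes above background on all 4 necrotic arrays at 4 °C, were those of wheat0130Contig3378 and whyf19i17. Levels of wheat0130Contig3378 were 1.15 and 1.16 in necrotic leaf at 4 °C, 4.24 on both arrays of necrotic leaf at 23 °C, and 5.08 and 5.11 in wild-type leaf at 4 °C. In shoot they were -2.46 and -2.40 in necrotic plants, against 1.64 and 1.63 in wild-type plants. The fall was close to equal, 15.4-fold in leaf and 16.7-fold in shoot, and replicate arrays differed by less than 0.1. The probe whyf19i17 had -6.13 and -6.28 in necrotic leaf, against -2.19 and -2.45 in wild-type leaf at 4 °C, 14.8-fold lower. Its shoot levels were -5.38 and -5.25 in necrotic plants, against -1.84 and -2.001 in wild-type plants, 10.54-fold lower. It was not above background on either array of necrotic leaf at 23 °C. With normexp several of these falls were smaller: in leaf -4.34 for rwhr25o12, -3.04 for MUGEST2003_23lib_Contig8755_p_242, -3.49 for MUGEST2003_23lib_Contig18680_397 and -2.37 for whyf19i17. In shoot normexp gave -3.30 for MUGEST2003_23lib_Contig8755_p_242, -2.82 for MUGEST2003_23lib_Contig18680_397, -2.501 for whyf19i17 and -1.32 for MUGEST2003_23lib_Contig5913_251.

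**Figure D3:**
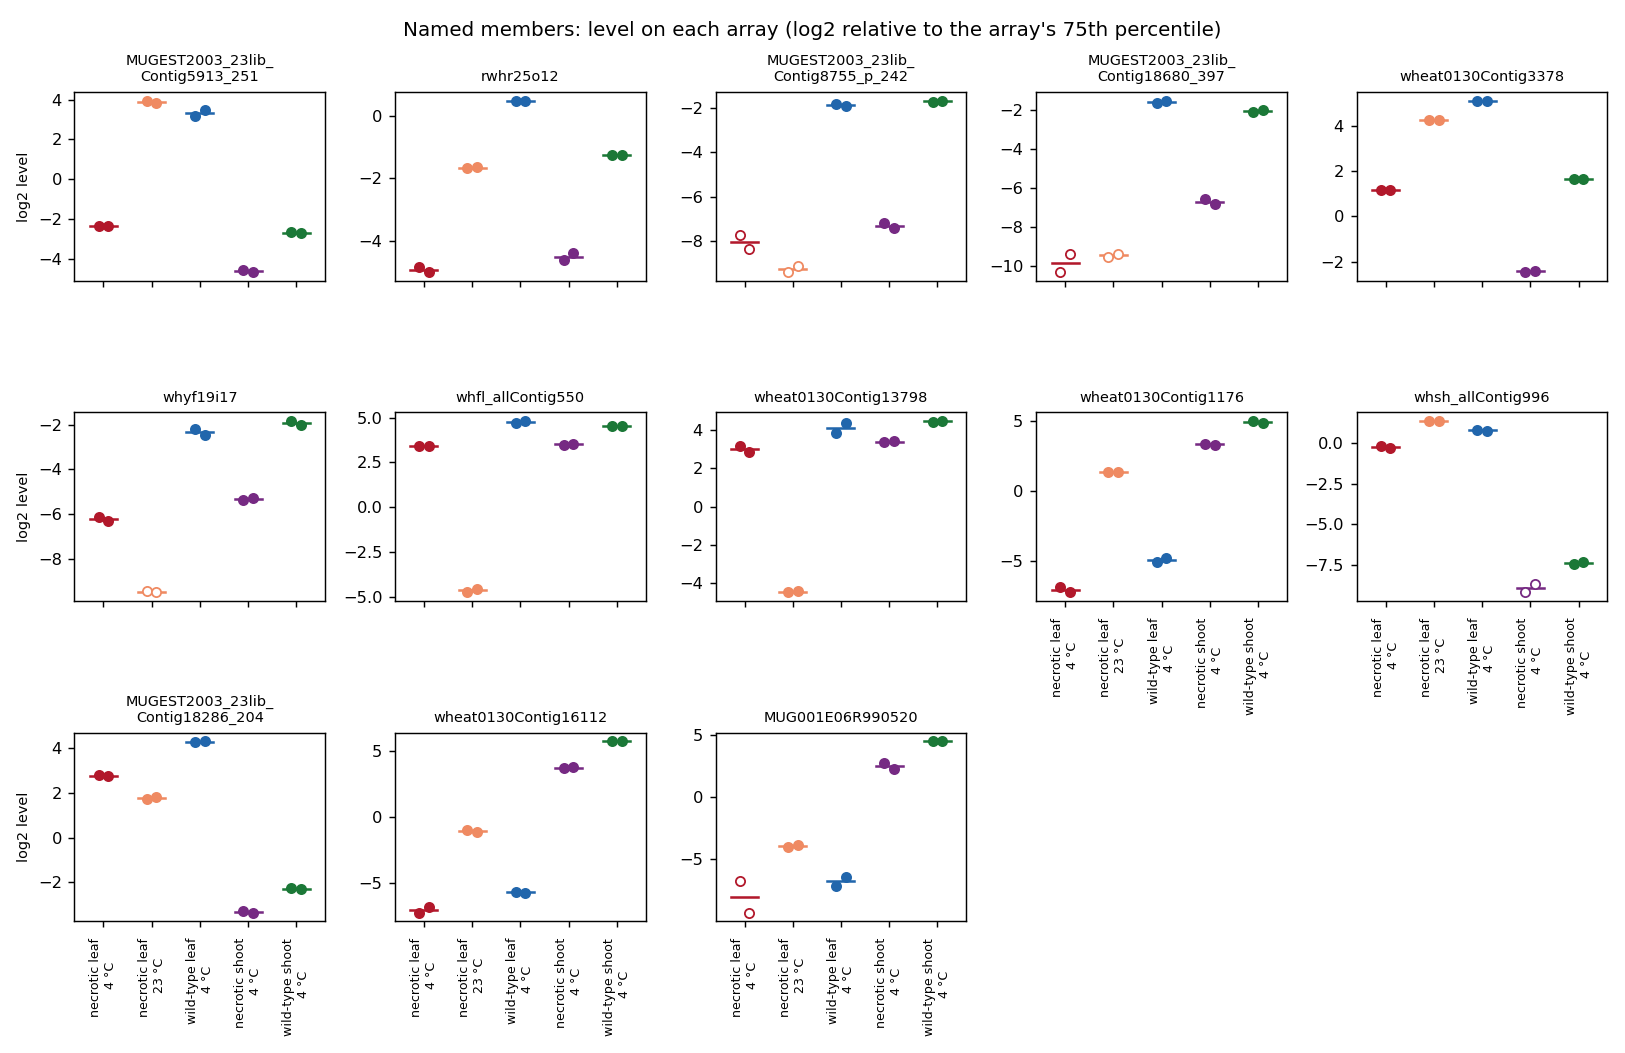
Level of the named probes on each array (vertical axis, log2 relative to the array's 75th percentile) for necrotic leaf at 4 °C and at 23 °C, wild-type leaf at 4 °C, and necrotic and wild-type shoot at 4 °C. Points are arrays, bars are group means, and open points mark a group with fewer than 2 arrays well above background.

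Of the 17 probes that fell at least 8-fold in both tissues, 9 were above background on neither array of necrotic leaf at 23 °C. In 14 of the 17, necrotic leaf at 23 °C was at least 2-fold below wild-type leaf at 4 °C, against 130 of all 262 (49.6%) and 12.1% of the probes above background in wild type. The wild-type leaf arrays of that comparison are ones the rule selected as high. Above background on all 10 arrays were 6 of the 17. A pair of the 6, singled out after their values were seen, differ at 23 °C. MUGEST2003_23lib_Contig4591_531 had -3.99 on both arrays of necrotic leaf at 4 °C, -3.60 and -3.54 in necrotic leaf at 23 °C, and -1.02 and -0.94 in wild-type leaf at 4 °C. In shoot it had -4.33 and -4.40 in necrotic plants, against -1.30 and -1.25 in wild-type plants, and the fall was 8.04-fold in leaf and 8.52-fold in shoot. The uncooled necrotic leaf thus lay close to the cold-treated one. In wheat0130Contig7084 the uncooled necrotic leaf, at -4.45 and -4.36, lay below the cold-treated necrotic leaf, at -2.30 and -2.32, and wild-type leaf was at 1.15 and 1.11.

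Of the 262 probes, 157 were well above background on all 10 arrays. Neither array was above background for 38 probes in necrotic leaf at 4 °C, of which 34 had a bound of at least 2-fold, and for 26 in necrotic shoot, of which 25 had one. At 23 °C, a group the rule did not use, 190 of the 262 probes (72.5%) were above background on both arrays of necrotic leaf, against 95.8% of the probes above background in wild type. At the same temperature 63 probes (24.0%) were above background on neither array, against 2.88%.

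For 10 probes no necrotic array, of leaf or shoot, cold-treated or not, gave a signal well above background. They were 3.82% of the selected probes and the only such probes among the 28456 above background in wild type (0.0351%), a share that the rule largely sets. They are given by array because they are the selected probes for which the 6 necrotic arrays set only an upper limit. In whsh_allContig80 the necrotic levels were -9.83 and -9.40 in leaf at 4 °C, -8.86 and -7.62 in leaf at 23 °C, and -10.08 and -9.74 in shoot, none above background. Its wild-type levels were -1.52 and -1.46 in leaf and -2.76 and -2.73 in shoot. It was at least 101.7-fold lower in necrotic leaf and at least 54.2-fold lower in necrotic shoot.

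Of the 10, 3 more had bounds of at least 8-fold in both tissues, and in these the wild-type leaf stood above the wild-type shoot. The probe wheat0130Contig3728 had -10.03 and -9.94 in necrotic leaf at 4 °C and -9.06 and -8.98 at 23 °C, against 0.09 and 0.19 in wild-type leaf at 4 °C, at least 315-fold lower at 4 °C. Its shoot levels were -9.93 and -10.22 in necrotic plants, against -5.21 and -5.06 in wild-type plants, at least 10.35-fold lower. For rwhvs3e20_m_800 the bounds were 195.6-fold in leaf and 8.36-fold in shoot, and for wheat0130Contig9469 they were 36.7-fold and 16.7-fold. Another probe with the clone name of rwhvs3e20_m_800 did not show such a fall, as given below. Set against wild-type leaf at 4 °C, the uncooled necrotic leaf was at least 161-fold lower for wheat0130Contig3728, 100.1-fold for rwhvs3e20_m_800, 52.0-fold for whsh_allContig80 and 18.8-fold for wheat0130Contig9469. In that comparison the line, the temperature, the age and the slide all differ. In rwhyf28g23 the shoot carried the larger difference: it had -10.31 and -10.39 in necrotic shoot, against -3.28 and -3.29 in wild-type shoot, at least 37.4-fold lower, and at least 3.41-fold lower in leaf. The bounds of the other 5 were 1.64-fold to 5.74-fold in leaf and 1.82-fold to 16.1-fold in shoot. All 10 were named after their values were seen.

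**Figure D4:**
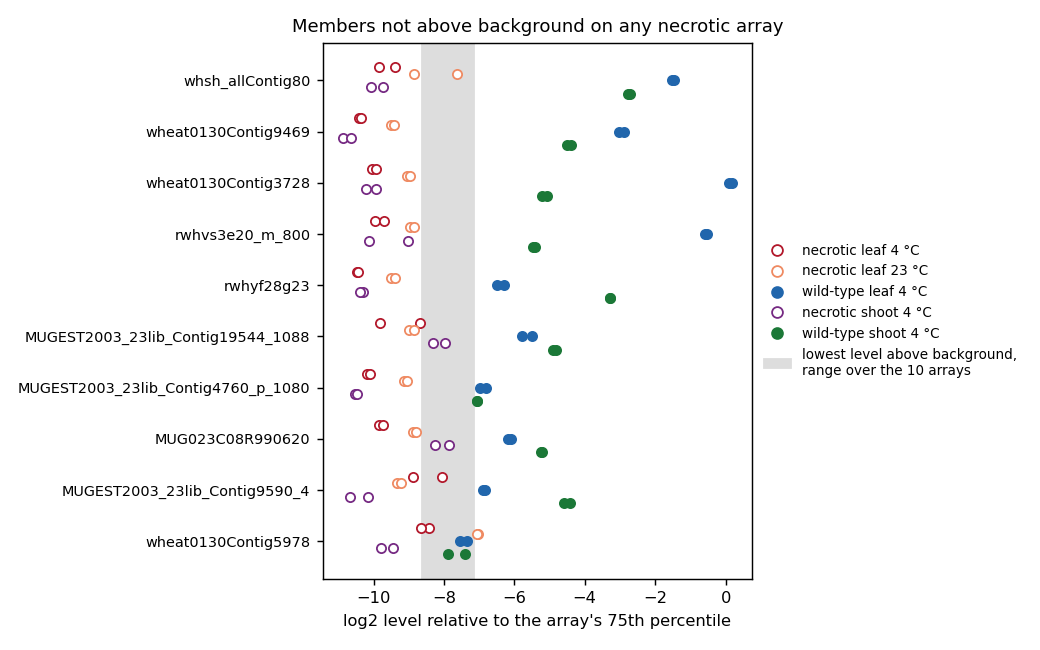
Level on each array of the 10 probes without a signal well above background on the 6 necrotic arrays (log2 relative to the array's 75th percentile). Open symbols are the necrotic groups, filled symbols are the wild type, and the grey band spans the lowest level above background over the 10 arrays; the wild-type points at 4 °C stand above the necrotic ones at 4 °C in both tissues.

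Cold treatment of the necrotic line was examined by comparing its leaf at 4 °C with its leaf at 23 °C, over all 33096 probes above background in at least 1 group, with limma and Benjamini-Hochberg adjustment at an adjusted p under 0.05. The comparison uses the same necrotic leaf arrays at 4 °C that the rule selected as low. Of the 262 probes, 152 were lower at 4 °C (58.0%), against 45.2% of all probes tested and 45.5% of those above background in wild type. Another 74 were higher (28.2%), against 31.6% and 34.1%, and 36 were not called. Of the called probes 67.3% were lower, and 87.0% with normexp background correction. With a 2-fold difference required as well, 118 were lower (45.0%), against 18.2% and 16.2%, and 42 were higher (16.0%), against 12.1% and 12.0%. The median difference, 4 °C minus 23 °C, was -0.83 over the 262 probes and -0.18 over all probes tested.

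Part of those calls lay near background. In necrotic leaf the lowest level above background was -8.18 and -8.14 at 4 °C, against -7.24 and -7.16 at 23 °C, and the dimmest probes thus read higher at 23 °C. Among the calls, 16 of the 152 lower and 2 of the 74 higher were above background on neither side. On the 168 probes above background on all 4 arrays, 89 were at least 2-fold lower at 4 °C (53.0%), against 16.5% of the 27134 like probes above background in wild type. On the same probes 15 were at least 2-fold higher (8.93%), against 10.4%.

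Where the uncooled necrotic leaf stood relative to the cold-treated leaves of both lines divided the probes evenly. Its mean was at or above that of wild-type leaf at 4 °C for 87 probes (33.2%, against 54.0% of the probes above background in wild type), between the lines for 88, and at or below necrotic leaf at 4 °C for 87. In finer steps, drawn after the values were seen, 50 probes (19.1%) were at least 2-fold above wild-type leaf, against 16.2% of the probes above background in wild type, and 58 (22.1%) were within 2-fold of wild-type leaf and at least 2-fold above necrotic leaf at 4 °C, against 4.94%. In these probes the uncooled necrotic leaf was near or above cold-treated wild-type leaf, and the cold-treated necrotic leaf was low. Another 73 probes (27.9%, against 3.31%) were at least 2-fold below wild-type leaf at 4 °C and within 2-fold of the cold-treated necrotic leaf. A further 43 (16.4%) were at least 2-fold below even the cold-treated necrotic leaf. In the limma calls given above, 42 of the 262 (16.0%) were at least 2-fold higher at 4 °C. Of the probes above background in wild type, 12.0% were. Between the lines, at least 2-fold from each, stood 14 (5.34%, against 0.119%). The last 24 (9.16%), for which no like share was taken, were within 2-fold of both. The rule requires the lines to lie at least 2-fold apart, which bears on each of these shares. Of the 73 probes, 45 were above background on both arrays at 23 °C, of the 43, 15 were, and of the 14, 7 were. A level below background sets only an upper limit, and the dimmest probes read higher at 23 °C, as said above.

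Among selected probes above background on all 4 arrays, wheat0130Contig1176 and MUGEST2003_23lib_Contig5913_251 were the furthest below their level at 23 °C. Age and slide differ in this comparison as well. The probes named for it were picked as its extremes or for deep falls on the same necrotic leaf arrays. Their p-values, and those of the extremes in the tissue comparisons below, are therefore not tests of independently chosen probes. Levels of wheat0130Contig1176 were -6.82 and -7.23 in necrotic leaf at 4 °C, against 1.39 and 1.37 at 23 °C. The difference was -8.41 (SE 0.15, adjusted p = 2.94e-08 in limma), 340-fold lower. Wild-type leaf at 4 °C was low as well, at -5.04 and -4.76, so that both cold-treated leaves stood far below the uncooled one. The difference between the lines in leaf was -2.13, and -0.66 with normexp. MUGEST2003_23lib_Contig5913_251, whose arrays are given above, differed by -6.22 (SE 0.10, adjusted p = 2.24e-08 in limma), 74.4-fold lower at 4 °C. In that probe wild-type leaf at 4 °C was instead close to the uncooled necrotic leaf. The shared fall of wheat0130Contig3378 came with a difference of -3.09 (SE 0.04, adjusted p = 8.20e-09 in limma), 8.49-fold lower at 4 °C, and that of rwhr25o12 with one of -3.25 (SE 0.08, adjusted p = 1.36e-07 in limma).

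Furthest above their level at 23 °C were whfl_allContig550 and wheat0130Contig13798. Levels of whfl_allContig550 were 3.41 and 3.43 in necrotic leaf at 4 °C, against -4.76 and -4.55 at 23 °C, a difference of 8.08 (SE 0.07, adjusted p = 3.36e-09 in limma), 270-fold higher. Wild-type leaf at 4 °C reached 4.71 and 4.81, so the necrotic leaf was high in the cold but 2.53-fold below wild type. In shoot the probe had 3.47 and 3.52 in necrotic plants, against 4.53 on both arrays of wild-type plants, 2.05-fold lower. The probe wheat0130Contig13798 had 3.18 and 2.84 in necrotic leaf at 4 °C, against -4.47 and -4.39 at 23 °C, a difference of 7.44 (SE 0.17, adjusted p = 9.13e-08 in limma), 173-fold higher. Its wild-type leaf levels were 3.87 and 4.37 at 4 °C, and the fall between the lines was 2.16-fold in leaf and 2.09-fold in shoot. Both probes had far higher levels in cold-treated necrotic leaf than in uncooled necrotic leaf and lay just over 2-fold below the wild type.

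The tissues were compared within each line, on the same 8 arrays whose line differences chose the probes, so the counts describe the selected probes. In wild-type plants, 143 of the 262 were lower in leaf (54.6%), against 48.7% of all probes tested and 45.1% of those above background in wild type, and 86 were higher in leaf (32.8%), against 39.4% and 43.3%. With 2-fold required as well, 128 were lower in leaf (48.9%), against 34.5% and 29.0%, and 67 were higher (25.6%), against 23.8% and 25.4%. In necrotic plants, 150 were lower in leaf (57.3%), against 48.9% and 45.9%, and 80 were higher (30.5%), against 34.5% and 37.9%. With 2-fold required, 131 were lower in leaf, against 29.6% and 24.0%, and 67 were higher (25.6%), against 16.6% and 17.4%. Not called were 33 probes in wild-type plants and 32 in necrotic plants. Lower in leaf were 65.2% of the calls in necrotic plants, and 54.9% with quantile normalization. In wild-type plants these shares were 62.4% and 55.5%. The wild-type median over all probes tested, leaf minus shoot, was -0.221. It changed sign to 0.147 with quantile normalization and 0.173 with median scaling. The tissues also differed in weeks of cold and in slide.

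Wild-type shoot was at least 2-fold above wild-type leaf, by group means, in 41 of the 50 probes whose uncooled necrotic leaf was at least 2-fold above wild-type leaf (82.0%), against 53.1% of the 4622 probes above background in wild type with that same height at 23 °C. The largest difference towards shoot was in wheat0130Contig16112. Its necrotic levels were -7.23 and -6.78 in leaf at 4 °C, -1.02 and -1.12 in leaf at 23 °C, and 3.70 and 3.74 in shoot. The wild type had -5.67 and -5.73 in leaf, against 5.69 and 5.71 in shoot, a difference of -11.40 (SE 0.13, adjusted p = 8.89e-10 in limma). The necrotic line was thus 2.47-fold below wild type in leaf and 3.95-fold below wild type in shoot, but with normexp the leaf difference was -0.35, under the 2-fold threshold. MUG001E06R990520 had a difference of -11.28 (SE 0.76, adjusted p = 5.59e-06 in limma) between wild-type leaf and wild-type shoot. In leaf its necrotic arrays were at -6.70 and -9.29, against -7.12 and -6.42 in wild-type plants, and without the second necrotic array the leaf difference was 0.070, so its place among the 262 rests on 1 array; with normexp it was -0.038.

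Leaf-rich members were led by whsh_allContig996 and MUGEST2003_23lib_Contig18286_204. Levels of whsh_allContig996 in necrotic plants were -0.18 and -0.26 in leaf, 2.08-fold below wild type, and not above background on either array in shoot, at least 2.18-fold below wild type, where normexp gave a difference of -0.21. Wild-type leaf had 0.86 and 0.80, against -7.43 and -7.33 in wild-type shoot, a difference of 8.21 (SE 0.16, adjusted p = 8.27e-09 in limma). MUGEST2003_23lib_Contig18286_204 had 2.80 and 2.73 in necrotic leaf at 4 °C and -3.27 and -3.37 in necrotic shoot, 2.88-fold and 2.03-fold below wild type. It had 4.28 and 4.31 in wild-type leaf, against -2.28 and -2.31 in wild-type shoot, a difference of 6.59 (SE 0.05, adjusted p = 2.91e-10 in limma). In MUGEST2003_23lib_Contig5913_251, already the deepest leaf fall, wild-type leaf was 63.9-fold above wild-type shoot.

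**Figure D5:**
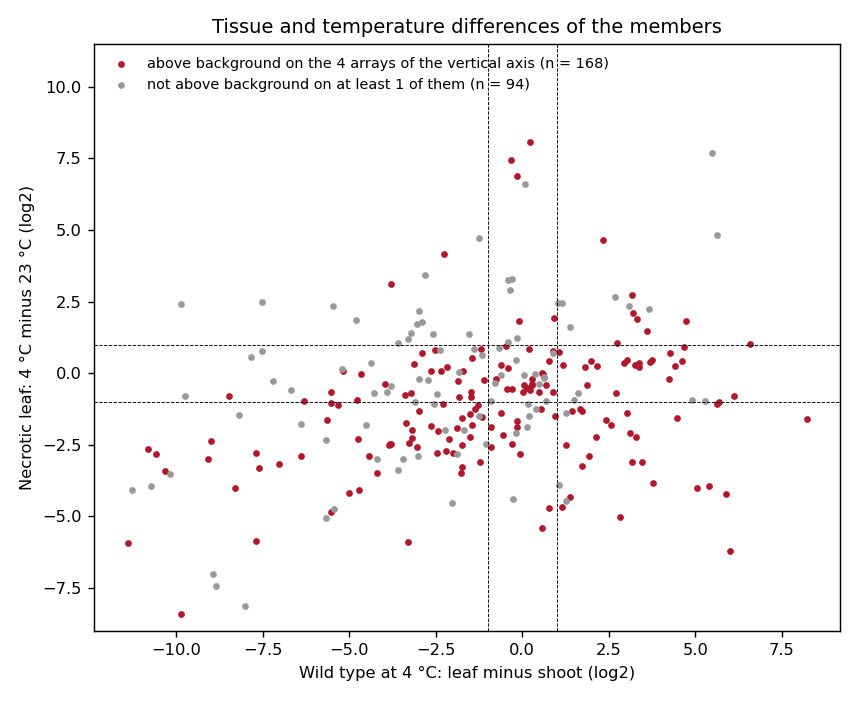
For each of the 262 probes, necrotic leaf at 4 °C minus necrotic leaf at 23 °C (vertical axis) against wild-type leaf minus wild-type shoot (horizontal axis), both in log2 units. Points in the lower left, 75 probes at least 2-fold lower at 4 °C and at least 2-fold higher in shoot, form the most populated field. The fields were not counted over other probes.

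Crossing the temperature and tissue classes by group means, 75 of the 262 probes were at least 2-fold lower at 4 °C and shoot-rich, 29 were at least 2-fold lower at 4 °C and leaf-rich, and 18 were at least 2-fold lower at 4 °C with the tissues within 2-fold. The 29 leaf-rich ones had the deepest median line differences of any such class, at -2.54 in leaf and -2.08 in shoot. That class is defined by a low necrotic leaf at 4 °C and a high wild-type leaf, which favours a deep leaf difference. The medians were taken on the measured means, levels below background included. Probes at least 2-fold higher at 4 °C were spread over all tissue classes, with 16 leaf-rich, 16 shoot-rich and 11 between. These classes share arrays with the rule and are a description. They were not counted over other probes, so the 75 cannot be set against a background share. Over all probes tested, 2-fold calls were also more often lower than higher at 4 °C (18.2% against 12.1%). The same held for wild-type leaf against shoot (34.5% against 23.8%).

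Probe names offered a further look at the selection, since 64 of the 262 carried a clone name with or without a leading r, and some clones had a probe of each form. The files do not state how such probes relate, and they were paired by name only. Of 58 clones among the 64 probes, 24 had 2 tested probes. In 6 of the 24 both probes were selected, and in 18 only 1 was. Of the 18 unselected partners, 12 were above background in both wild-type groups, and 10 of the 12 were below 0 in both tissues, whereas 8022 of 28194 unselected probes above background in wild type were (28.5%). For clone r25o12, whr25o12 was at least 28.7-fold lower in leaf, where no necrotic array was above background, and differed by -2.71 in shoot, while rwhr25o12 differed by -5.38 in leaf and -3.26 in shoot. For clone em6l23 both probes were above background on neither necrotic shoot array. In whem6l23_636 the fall was 8.02-fold in leaf and at least 19.5-fold in shoot, and in rwhem6l23_506 it was 7.52-fold in leaf and at least 7.48-fold in shoot. Partners differed elsewhere: whyf19i17 is described above, while whyf19i17_2 was at -0.64 in leaf and -0.90 in shoot. The bounds of rwhvs3e20_m_800 are given above as well. Its partner rwhvs3e20_p_807 read -10.09 and -8.85 in wild-type leaf, above background on neither array. The line differences of rwhvs3e20_p_807 were -0.69 in leaf and -0.48 in shoot. In h20k12 the line differences of whh20k12 and rwhh20k12 were -1.70 and -1.94 in leaf, and -1.02 and -1.86 in shoot. The difference between 4 °C and 23 °C was -2.59 for whh20k12 and 0.06 for rwhh20k12. These clones were chosen after their values were seen.

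Close to the thresholds, MUG002D12R990520 was the nearest member in leaf, at -1.0001 with -1.13 in shoot, and MUGEST2003_23lib_Contig2356_313 the nearest in shoot, at -1.0028 with -1.49 in leaf. Just outside were whfl_allContig2101, at -0.9997 in leaf and -1.63 in shoot, and wheat0130Contig4765, at -0.9989 in shoot and -1.37 in leaf. Membership at the edge thus turned on differences far smaller than the gap between replicate arrays. None of the 6 probes that carry a gene name was selected. Among these, Wcor15, a cold-regulated chloroplast protein gene of wheat, was 0.68 higher in necrotic than in wild-type leaf and at least 5.62-fold lower in necrotic than in wild-type shoot. RD29B, a stress-responsive gene known from Arabidopsis, differed by -0.32 in leaf and 0.06 in shoot. The probes for cor47, RD29A, DREB2A and DREB2B were above background on no array.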

How the data were processed

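RNA of 10 samples was hybridised to 1-colour (Cy3) Agilent arrays, per the labels. The deposited scanner tables hold processed signal intensity, background-subtracted by Agilent Feature Extraction 10.5.1.1 per the file headers, while the submitters' processing notes name version 9.5. The authors' value table equals that intensity (largest relative difference 0).

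Control spots were left out, log2 intensity was centred on each array's 75th percentile, and group means gave the 262 probes. No spot of theirs was flagged as an outlier (12 to 143 flagged spots per array) or saturated. The 33096 of 37826 probes that passed the background call on the 2 arrays of some group were fitted with limma 3.58.1 in R 4.3.3, with 1 mean per group over the 10 arrays, residual df 5 and Benjamini-Hochberg adjustment, called at an adjusted p under 0.05. The fit was tested on simulated data. The number of arrays limits the precision.

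The members, lists and named-probe rule were chosen with earlier results of these data known. The rule took any member with a gene name (there were 0), the 2 deepest falls in leaf, in shoot and in both, the 2 highest and 2 lowest in the temperature comparison, the 2 most leaf-rich and shoot-rich, the 2 probes on each side of the thresholds, and 6 gene-named probes.

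Alternatives were normexp (offset 50, on the median signal, since the tables used here have no mean signal column), quantile or median normalization, filters, thresholds, left-out arrays, flagged spots, an intensity trend, the 2 groups alone, the replicate number as a block, and the authors' value table.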

Additional observations from a re-analysis of the deposited data

How the results depend on the processing

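The rule gave 90 probes with normexp (87 of them among the 262), which adds a constant to each signal and so compresses dim probes. It gave 157 with only probes above background on all 10 arrays and 85 with a fall of 1.5. Quantile normalization gave 286 (246 shared), median scaling 306 (262 shared), every array 2-fold apart 189, and leaving out 1 array 251 to 303 (233 to 257 shared). The 233 were those shared without necrotic leaf replicate 2 at 4 °C. In the temperature comparison normexp called 33 probes higher and 14 at least 2-fold higher, and 87.0% of the called probes were lower, against 67.3% in the reported setting. The median of all probes tested moved to -0.478 with normexp, -0.055 with quantile and -0.065 with median scaling, from -0.183. With the filter on all 10 arrays, fewer probes were left: 144 were called, 38 higher and 14 at least 2-fold higher. The same filter called 146 in the wild-type tissue comparison (86 lower, 76 and 44 at least 2-fold lower and higher in leaf) and 140 in the necrotic one (86 lower, 73 at least 2-fold lower). Quantile normalization lowered the share lower in leaf among necrotic calls to 54.9%, against 65.2%, and among wild-type calls to 55.5%, against 62.4%. Leaving out 1 array gave 216 to 226 calls by temperature (146 to 159 lower, 67 to 73 higher, 116 to 123 and 38 to 43 at least 2-fold), 219 to 223 for wild-type tissues (139 to 142, 79 to 83, 126 to 128 and 66 to 67) and 219 to 232 for necrotic tissues (143 to 153, 75 to 79, 125 to 130 and 64 to 69).

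Same-numbered arrays deviated from their group means with correlations of -0.011 to 0.063, so they share only a number. With the replicate number as a block, 225, 229 and 231 probes were called by temperature, in wild-type tissues and in necrotic tissues, against 226, 229 and 230. Slide as a block was not run, since each group lies on 1 slide.

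Named values that changed sign were the leaf difference of MUG001E06R990520 (0.070 without necrotic leaf replicate 2 and -2.52 without replicate 1) and, between 4 °C and 23 °C, those of MUGEST2003_23lib_Contig8755_p_242 (-0.73 with normexp), whyf19i17 (-0.48 with normexp) and MUGEST2003_23lib_Contig18680_397 (0.85 with quantile, 0.091 without necrotic leaf replicate 1 and -0.85 without replicate 2). These last 3 were not above background on either array at 23 °C. The cause was not tested.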
